A study of Homo sapiens with 8 samples.

Results

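In DU145 cells, a human prostate cancer line, 9 genes of the coagulation and plasminogen system were described, out of 23391 genes listed in the count table. F13A1 encodes the catalytic A subunit of coagulation factor XIII. F3, TFPI and TFPI2 encode tissue factor and its inhibitor family, and PLAU, PLAUR and PLAT encode the plasminogen activators and the urokinase receptor. SERPINE2 and SERPIND1 encode protease inhibitors. The 9 members were taken by name from the table. F13A1 and SERPIND1 had been chosen for their levels over the 4 conditions, F13A1 as lower with Esrrb and partly returning with DY131, and SERPIND1 as appearing with DY131, so their values are a description without a test. The other 7 members were tested, and all 9 passed the filter on low values, SERPIND1 only through the libraries in which it was high.

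Messenger RNA was sequenced from 8 libraries in 4 groups of 2. DU145-pc3.1 cells carried the empty vector pcDNA3.1-zeo, and DU145-Esrrb cells carried the same vector with human Esrrb (estrogen related receptor β, an orphan nuclear receptor). Both were stably transfected pools kept under Zeocin selection, so the DU145-pc3.1 group shared the selection and the vector with DU145-Esrrb. DU145-pc3.1 DY131 and DU145-Esrrb DY131 were the same pools given 3 µM DY131, a synthetic ligand of Esrrb and of the related receptor Esrrg, in charcoal-stripped serum for a time not given in the sources used here. The labels number separate samples, and the study calls them biological replicates. Comparisons for Esrrb set the pools against each other, so Esrrb cannot be told apart from other differences between the pools. The pools are constitutive overexpression models, and the receptor level in them is set by the vector and not by the cell's own gene.

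Blood clotting starts when tissue factor on a cell surface binds factor VII, and the cascade ends with thrombin turning fibrinogen into fibrin, which factor XIII crosslinks. The plasminogen system does the opposite: urokinase, held on cells by its receptor, and tissue plasminogen activator turn plasminogen into plasmin, which dissolves fibrin and extracellular matrix. Carcinoma cells often make tissue factor and urokinase themselves, and serpins and Kunitz-type inhibitors hold these proteases in check. Esrrb binds DNA at the estrogen related receptor response element, an element built on the letters AGGTCA.

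Upstream sequences are shown for 4 members: F13A1 and SERPIND1, whose levels defined the set, TFPI, which fell with DY131 in both pools, and SERPINE2, which passed the test in no comparison with all 8 libraries. Each is the 250 bases before a RefSeq transcript start, 5′ to 3′ on the gene's strand, from RefSeq on GRCh38.p14. The windows are chr6:6320663-6320912 (minus strand) for F13A1, chr22:20773863-20774112 (plus strand) for SERPIND1, chr2:187554436-187554685 (minus strand) for TFPI and chr2:224031479-224031728 (minus strand) for SERPINE2. Capitals mark AGGTCA or AAGGTCA on either strand, so that TGACCT and TGACCTT are the same letters read from the opposite strand.
F13A1: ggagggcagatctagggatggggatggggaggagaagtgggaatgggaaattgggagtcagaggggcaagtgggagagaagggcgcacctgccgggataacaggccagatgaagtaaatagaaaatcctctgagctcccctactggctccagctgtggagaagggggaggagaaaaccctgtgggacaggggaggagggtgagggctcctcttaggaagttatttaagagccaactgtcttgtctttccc
SERPIND1: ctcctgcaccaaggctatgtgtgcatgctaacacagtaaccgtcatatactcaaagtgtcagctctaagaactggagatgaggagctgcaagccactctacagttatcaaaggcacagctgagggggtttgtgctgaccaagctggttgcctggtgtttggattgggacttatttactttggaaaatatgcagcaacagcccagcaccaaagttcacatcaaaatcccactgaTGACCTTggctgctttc
TFPI: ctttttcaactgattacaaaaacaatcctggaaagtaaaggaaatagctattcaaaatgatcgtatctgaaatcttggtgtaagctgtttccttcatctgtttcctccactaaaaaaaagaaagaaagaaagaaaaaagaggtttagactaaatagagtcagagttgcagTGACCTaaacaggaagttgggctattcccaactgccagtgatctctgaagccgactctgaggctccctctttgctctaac
SERPINE2: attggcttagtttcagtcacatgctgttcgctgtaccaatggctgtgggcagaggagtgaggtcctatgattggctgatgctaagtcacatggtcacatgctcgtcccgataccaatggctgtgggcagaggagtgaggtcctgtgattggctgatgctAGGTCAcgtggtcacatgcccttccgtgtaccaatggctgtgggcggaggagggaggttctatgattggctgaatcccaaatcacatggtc
The letters searched, on both strands, were AGGTCA, which 12.1% of all 35116 RefSeq promoter windows of this length held, the longer AAGGTCA, which 3.44% held, and TCAAGGTCA, which 0.319% held. Each shorter form lies inside the longer ones. SERPIND1 held AAGGTCA, TFPI held AGGTCA, and SERPINE2 held AGGTCA in the window shown but none of the letters in its second window. None of the letters searched was in the windows of F13A1, F3, TFPI2, PLAU or PLAUR, and PLAT was not searched. Every member window with a match is among the sequences shown, so their share of matches does not represent the members. PLAU, which also fell with DY131 in both pools, is not shown. The gene spans of F13A1, TFPI and SERPINE2 begin upstream of the windows shown, at chr6:6321013, chr2:187565760 and chr2:224039319. That of SERPIND1 begins inside its window, at chr22:20773879. Its match therefore lies within the annotated gene span. A match is a description of letters and not of binding, and no match says only that these letters were not in the window.

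Counted reads ranged from 7858743 to 11551690 per library, with the 2 DU145-Esrrb DY131 libraries the lowest. ESRRB itself had 3 and 0 reads in DU145-pc3.1, 104 and 99 in DU145-Esrrb, 0 and 1 in DU145-pc3.1 DY131, and 105 and 143 in DU145-Esrrb DY131. Each library thus matched its label for the vector. The DY131 part of the labels is not checked by these reads. Levels are given as cpm, the reads of a gene per 1000000 reads on tested genes, scaled by TMM. In the comparisons with DU145-Esrrb DY131, log2 fold changes also moved with the share of a gene's read positions that cross an exon junction: Spearman's rho over 13606 genes was -0.38 for DY131 in DU145-Esrrb cells and -0.48 for Esrrb in DY131-treated cells, against 0.01 with DY131 in DU145-pc3.1 cells. The members' junction shares ran from 8.18% for TFPI2 to 27.3% for TFPI. The DU145-Esrrb DY131 libraries also had the fewest genes detected, 15690 and 15840 against 16500 to 16876 in the others. A property of these libraries cannot be told apart from the response to DY131 in DU145-Esrrb cells. For the members, a fit with the junction share as an offset is given wherever it changed a call. It does not show what part of a change comes from the libraries. No such fit is given for the genes of the wider system.

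F13A1 was high in DU145-pc3.1 cells, lowest in DU145-Esrrb cells, and between these levels with DY131 in either pool. It had 414 and 439 reads in DU145-pc3.1, or 39.5 and 38.7 cpm. In DU145-Esrrb it had 78 and 60 reads, or 6.62 and 5.52 cpm. With DY131 it had 16.4 and 20.2 cpm in DU145-pc3.1 and 16.2 and 17.2 cpm in DU145-Esrrb. Every library with DY131 lay below the DU145-pc3.1 libraries and above the DU145-Esrrb libraries, and the ranges of the DY131-treated groups overlapped. The group means were 39.1 ± 0.603 cpm (SD, n = 2) in DU145-pc3.1, 6.07 ± 0.780 in DU145-Esrrb, 18.3 ± 2.74 in DU145-pc3.1 DY131 and 16.7 ± 0.718 in DU145-Esrrb DY131. F13A1 in DU145-Esrrb was therefore at 15.5% of its level in DU145-pc3.1, and after DY131 it was at 46.8% in the DU145-pc3.1 pool and at 42.7% in the DU145-Esrrb pool.

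**Figure D1:**
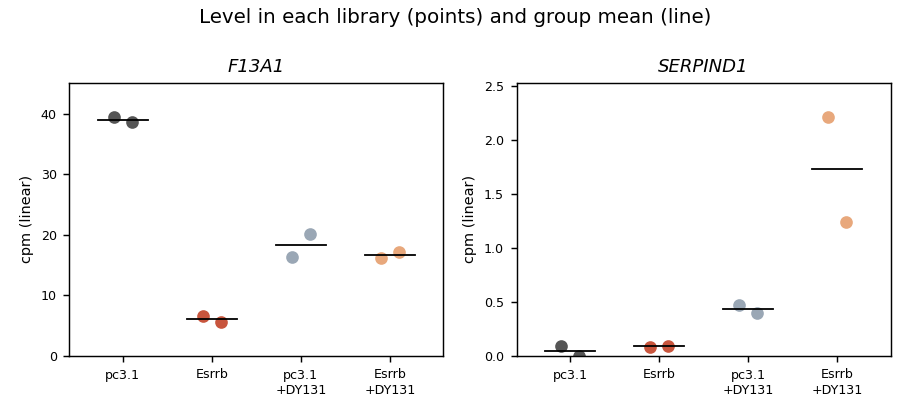
Level of F13A1 (left) and SERPIND1 (right) in cpm on linear axes that start at 0, by group. Points are the 8 libraries, and lines are the means of 2. F13A1 is at 39.1 cpm in DU145-pc3.1 and 6.07 cpm in DU145-Esrrb, and lies at 18.3 and 16.7 cpm with DY131, whereas SERPIND1 is above 1 cpm only in DU145-Esrrb DY131.

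On the log2 scale F13A1 differed by -2.68 (SE 0.13) between DU145-Esrrb and DU145-pc3.1 without DY131. DY131 went with a difference of -1.10 (SE 0.11) in DU145-pc3.1 cells and of 1.45 (SE 0.16) in DU145-Esrrb cells, so the same ligand moved F13A1 in opposite directions in the pools. Between the DY131-treated pools the difference was -0.13 (SE 0.13). The response to DY131 in DU145-Esrrb minus that in DU145-pc3.1 was 2.55 (SE 0.19). No p is given for these values because F13A1 was chosen by them, and for the same reason their standard errors are no test.

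F13A1 is best known from macrophages and megakaryocytes, and markers of those cells were read beside it. Of 7 macrophage and monocyte markers 2 passed the filter, CD163 and AIF1 were at 0 in every library, and the summed level was 2.38 to 2.67 cpm in DU145-pc3.1, 2.58 to 2.63 in DU145-Esrrb, 1.79 to 2.34 in DU145-pc3.1 DY131 and 0.782 to 0.904 in DU145-Esrrb DY131. Of 5 megakaryocyte and platelet markers 2 passed, GP9 was at 0, and the sum was 6.60 to 7.82 cpm in DU145-pc3.1, 6.81 to 7.47 in DU145-Esrrb, 3.47 to 6.64 in DU145-pc3.1 DY131 and 3.84 to 4.95 in DU145-Esrrb DY131. Both sums overlapped between DU145-Esrrb and DU145-pc3.1. The megakaryocyte and platelet markers that passed went different ways. In DU145-pc3.1, DU145-Esrrb, DU145-pc3.1 DY131 and DU145-Esrrb DY131, the means were 4.01, 4.53, 1.62 and 1.11 cpm for ITGA2B. For GP1BA they were 3.16, 2.61, 3.34 and 3.12 cpm. Whether the mix of cells differed between groups was not tested. The 5 epithelial markers all passed, with summed levels from 2132 to 2767 cpm over the libraries, most of it from KRT8 and KRT18. Single epithelial markers went different ways: from DU145-pc3.1 to DU145-Esrrb DY131 the mean was 1093 and 1622 cpm for KRT8, 811 and 801 for KRT18, 103 and 78.5 for EPCAM, 161 and 67.8 for CDH1, and 24.3 and 10.2 for CLDN7. In RNA from a whole culture, fewer cells that make a transcript and less of it per cell cannot be told apart.

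The genes whose profile was most like that of F13A1 over the 8 libraries were PXDN, SPNS2, LOC344887, NEBL and SAMD9, among 11265 candidates with a mean of at least 5 cpm. Likeness was the root mean square difference of log2 cpm, each gene centred on its own mean. PXDN, a peroxidase of the extracellular matrix, was the nearest at 0.33, with means of 37.9 ± 4.16 cpm (SD, n = 2) in DU145-pc3.1, 5.49 ± 0.686 in DU145-Esrrb, 26.8 ± 2.01 in DU145-pc3.1 DY131 and 15.4 ± 1.89 in DU145-Esrrb DY131. SPNS2, a sphingosine-1-phosphate transporter, followed at 0.48 with means of 17.2, 5.29, 18.6 and 14.9 cpm in the same order. LOC344887, NEBL and SAMD9 were at 0.62, 0.63 and 0.67. All 5 were lowest or near their lowest in DU145-Esrrb, which follows from their choice by likeness to F13A1. In DU145-pc3.1 DY131 none of them fell as far as F13A1 did.

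**Figure D2:**
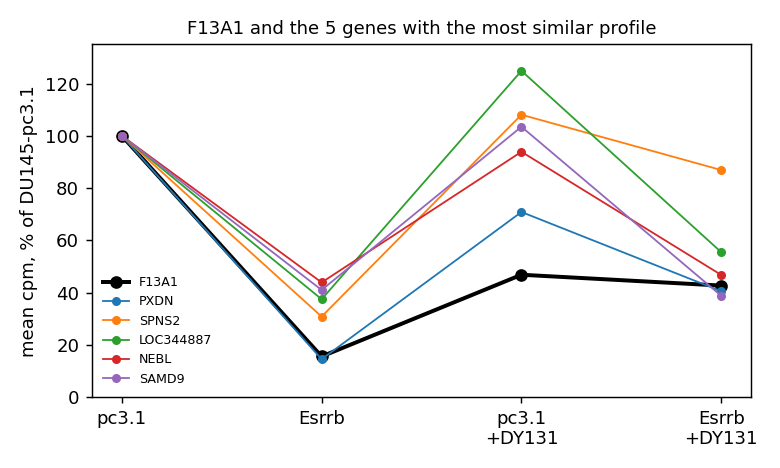
Mean level (n = 2) of F13A1 and of the 5 genes nearest to it in profile, as a percentage of the DU145-pc3.1 mean on a linear axis, in the 4 groups. F13A1 (black) goes to 15.5% with Esrrb, and stands at 46.8% and 42.7% with DY131, whereas SPNS2, LOC344887 and SAMD9 are above 100% in DU145-pc3.1 DY131.

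SERPIND1, heparin cofactor II, a liver serpin that inhibits thrombin, was near 0 without DY131. It had 1 and 0 reads in DU145-pc3.1, and 1 and 1 reads in DU145-Esrrb. DY131 libraries had 5 and 4 reads in DU145-pc3.1 and 17 and 11 reads in DU145-Esrrb. A count of 3 reads corresponds to between 0.255 and 0.391 cpm in these libraries, so that only the DY131-treated libraries were above that floor, and the DU145-Esrrb DY131 libraries were the highest. Its mean was 1.73 ± 0.688 cpm (SD, n = 2) in DU145-Esrrb DY131 and 0.432 ± 0.0499 cpm in DU145-pc3.1 DY131. From the summed reads the ratio of DU145-Esrrb DY131 to DU145-Esrrb was 19.2, with an exact 95% counting interval of 4.84 to 166. The ratio of DU145-pc3.1 DY131 to DU145-pc3.1 was 9.46, with an interval of 1.31 to 414, and that of DU145-Esrrb DY131 to DU145-pc3.1 DY131 was 3.91, with an interval of 1.80 to 9.43. These intervals cover counting error only and are no test, since SERPIND1 was chosen by these values.

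SERPIND1 lies inside the span of PI4KA, on the opposite strand and without shared exon bases. PI4KA was at 23.6 ± 0.697 cpm (SD, n = 2) in DU145-pc3.1, 20.1 ± 0.859 in DU145-Esrrb, 30.6 ± 3.95 in DU145-pc3.1 DY131 and 27.8 ± 1.22 in DU145-Esrrb DY131, and was thus higher with DY131 by less than SERPIND1. Whether reads of PI4KA introns were counted for SERPIND1 was not tested. Of 5 hepatocyte markers none passed the filter, APOB and TTR were at 0 in every library, and their summed level did not exceed 1.02 cpm. Set per kilobase of transcript, SERPIND1 in DU145-Esrrb DY131 was at 0.710 ± 0.282 cpm per kb (SD, n = 2), and PLAT, the lowest of the other members there, was at 0.429 ± 0.0748.

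Across the 7 tested members, Esrrb alone changed 1 gene, and DY131 or Esrrb in its presence changed 4 each. A gene was called changed where the quasi-likelihood test of edgeR gave a p under 0.05 after adjustment over all 13856 genes. For Esrrb in untreated cells the 1 member that changed was lower, where 4.18% of all tested genes changed, 1.68% higher and 2.5% lower, and 0.577% changed at least 2-fold. With DY131 in the DU145-pc3.1 pool 2 members were higher and 2 lower, beside 37.4% of all genes, 18.9% higher and 18.5% lower, with 4.19% at least 2-fold. With DY131 in the DU145-Esrrb pool 1 was higher and 3 were lower, beside 58.7%, 29.2% and 29.5%, with 12% at least 2-fold. For Esrrb in DY131-treated cells 1 was higher and 3 were lower, beside 50.4%, 25.1% and 25.3%, and 1 member changed at least 2-fold, beside 8.21%. The response to DY131 differed between the pools for 3 members, all with a lower response in DU145-Esrrb, beside 33.7% of all genes, 16.1% with a higher and 17.6% with a lower response, and 6.28% by at least 2-fold. Nothing particular to the members is read from counts over 7 genes. The comparisons share libraries, and their values for one gene are not independent. The median log2 fold change of the 7 was -0.01, 0.23, -0.19, -0.60 and -0.24 in the order above, and that of all tested genes was between -0.0045 and 0.0082.

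**Figure D3:**
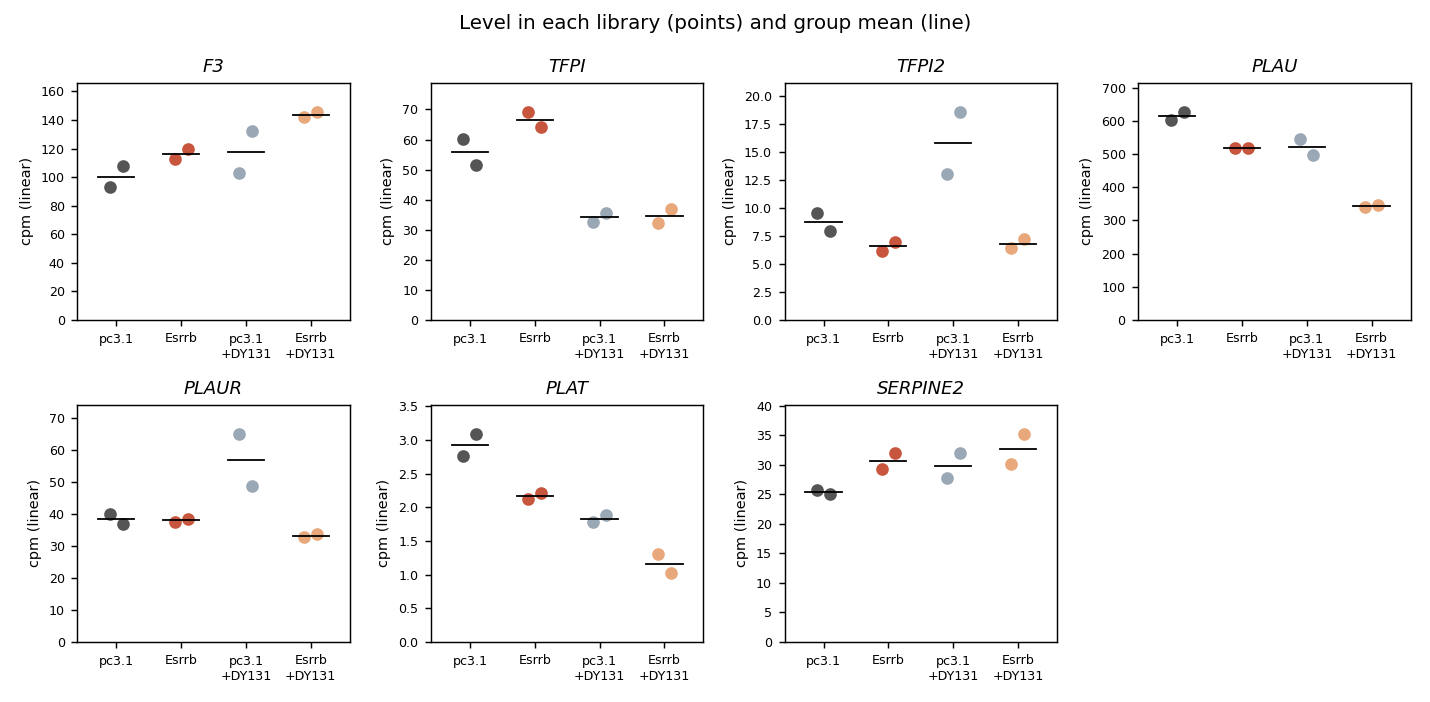
Levels of the 7 tested members in cpm, on linear axes that start at 0, in the 4 groups. Points are the 8 libraries, and lines are the means of 2. TFPI is lower in both DY131-treated groups, TFPI2 and PLAUR are high only in DU145-pc3.1 DY131, and PLAU is lowest in DU145-Esrrb DY131 at 344 cpm.

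F3 and its inhibitors did not move together. F3 encodes tissue factor, the cell surface receptor that starts clotting. It had 93.0 and 107.5 cpm in DU145-pc3.1 and 112.6 and 119.6 cpm in DU145-Esrrb. With DY131 it had 103.1 and 132.3 cpm in DU145-pc3.1 and 142.4 and 145.3 cpm in DU145-Esrrb, so that DU145-Esrrb DY131 was above all other libraries. F3 rose with DY131 in DU145-Esrrb cells (log2 fold change 0.31, SE 0.10, adjusted p = 0.0112, edgeR) and was higher with Esrrb among DY131-treated cells (0.29, SE 0.10, adjusted p = 0.0192). Esrrb alone gave 0.21 (SE 0.10, adjusted p = 0.284) and DY131 in DU145-pc3.1 cells gave 0.23 (SE 0.10, adjusted p = 0.0742), neither of which passed. With the junction share as an offset, neither call of F3 was kept (adjusted p = 0.0623 and 0.125), and each was also lost without either DU145-Esrrb DY131 library (adjusted p from 0.0521 to 0.124). The former was lost without DU145-Esrrb replicate 1 as well (adjusted p = 0.0876), and the latter without DU145-pc3.1 DY131 replicate 1 (0.107, adjusted p = 0.224). The response in DU145-pc3.1 cells passed without that last library (0.41, adjusted p = 3.60e-05), without DU145-pc3.1 replicate 2 (0.34, adjusted p = 0.0475) and with no filter on low counts (0.23, adjusted p = 0.00647).

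TFPI, the inhibitor of the tissue factor and factor VII complex, fell with DY131 in both pools. It had 60.0 and 51.5 cpm in DU145-pc3.1, and 69.0 and 64.2 cpm in DU145-Esrrb. With DY131 it had 32.6 and 35.7 cpm in DU145-pc3.1, and 32.2 and 36.7 cpm in DU145-Esrrb. Every DY131-treated library was below every untreated one, and the DY131-treated pools overlapped. The log2 fold change was -0.71 (SE 0.10, adjusted p = 4.08e-05, edgeR) in DU145-pc3.1 cells and -0.95 (SE 0.10, adjusted p = 8.17e-07) in DU145-Esrrb cells. The difference between these responses was -0.24 (SE 0.14, adjusted p = 0.191) and did not pass the test. Esrrb alone gave 0.26 (SE 0.09, adjusted p = 0.127). TFPI has the highest junction share of the members, and in DU145-Esrrb cells the 500 genes nearest to it in that share had a median log2 fold change of -0.25 with DY131, against 0.04 in DU145-pc3.1 cells. An antisense gene shares 118 of its 1088 transcript bases.

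TFPI2 encodes a related Kunitz-type inhibitor that acts on plasmin and other proteases in the extracellular matrix, and it responded to DY131 in the opposite direction to TFPI in DU145-pc3.1 cells. It had 9.54 and 7.92 cpm in DU145-pc3.1 and 6.20 and 6.99 cpm in DU145-Esrrb. DY131 brought it to 13.1 and 18.5 cpm in DU145-pc3.1 but only 6.39 and 7.23 cpm in DU145-Esrrb. The DU145-pc3.1 DY131 libraries were above all others, and the DU145-Esrrb libraries overlapped with and without DY131. The rise in DU145-pc3.1 cells was 0.86 on the log2 scale (SE 0.17, adjusted p = 0.00125, edgeR). In DU145-Esrrb cells the value was 0.05 (SE 0.22, adjusted p = 0.845). Among DY131-treated cells TFPI2 was lower with Esrrb by a log2 fold change of -1.20 (SE 0.19, adjusted p = 9.83e-05), the only member to change at least 2-fold in any tested comparison. The responses of the pools differed by -0.80 (SE 0.28, adjusted p = 0.0373), a call lost with DESeq2 (adjusted p = 0.125) and when any 1 of 6 libraries was left out (adjusted p from 0.058 to 0.129), all but replicate 1 of DU145-pc3.1 and of DU145-pc3.1 DY131.

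PLAU, the gene of urokinase, was the most abundant member and fell in every comparison. It had 603 and 626 cpm in DU145-pc3.1 and 518 and 520 cpm in DU145-Esrrb. After DY131 it had 546 and 498 cpm in DU145-pc3.1 and 341 and 346 cpm in DU145-Esrrb. The DU145-Esrrb DY131 libraries were lowest, at a mean of 55.9% of DU145-pc3.1. The log2 fold change was -0.24 (SE 0.06, adjusted p = 0.0253, edgeR) for Esrrb alone and -0.24 (SE 0.06, adjusted p = 0.00485) for DY131 in DU145-pc3.1 cells. It was -0.60 (SE 0.06, adjusted p = 6.17e-07) for DY131 in DU145-Esrrb cells and -0.60 (SE 0.06, adjusted p = 8.73e-07) for Esrrb in DY131-treated cells. The call for Esrrb alone was kept only without a DU145-pc3.1 DY131 library when each of the 8 was left out in turn (adjusted p from 0.071 to 0.231 without any of the other 6), and that for DY131 in DU145-pc3.1 cells was lost without DU145-pc3.1 replicate 2 (adjusted p = 0.0532). PLAU fell further with DY131 in DU145-Esrrb than in DU145-pc3.1 cells, by -0.36 (SE 0.08, adjusted p = 0.00373). C10orf55, on the opposite strand, shares 743 of the 2658 PLAU transcript bases. Its level went from 70.8 ± 1.54 cpm (SD, n = 2) in DU145-pc3.1 to 25.0 ± 0.309 in DU145-Esrrb DY131. The use of strand in counting is not given in the sources used here, so reads of the shared bases cannot be told apart and the level of PLAU is uncertain by that part.

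PLAUR encodes the urokinase receptor, which holds urokinase at the cell surface, and it did not follow its ligand. It had 39.9 and 37.0 cpm in DU145-pc3.1 and 37.5 and 38.5 cpm in DU145-Esrrb. Under DY131 it had 65.0 and 48.7 cpm in DU145-pc3.1 and 32.7 and 33.7 cpm in DU145-Esrrb. It was therefore highest in DU145-pc3.1 DY131, where the replicates also differed most, and lowest in DU145-Esrrb DY131. PLAUR rose with DY131 in DU145-pc3.1 cells (log2 fold change 0.57, SE 0.11, adjusted p = 0.000788, edgeR), while PLAU fell in the same cells. In DU145-Esrrb cells its value with DY131 was -0.19 (SE 0.12, adjusted p = 0.175), which passed without DU145-pc3.1 DY131 replicate 1 (-0.20, adjusted p = 0.0367) or 2 (-0.19, adjusted p = 0.0416). It was lower with Esrrb among DY131-treated cells by -0.78 (SE 0.12, adjusted p = 5.13e-05), and Esrrb alone gave -0.01 (SE 0.11, adjusted p = 0.971). The DY131 responses differed between the pools by -0.76 (SE 0.16, adjusted p = 0.00214).

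**Figure D4:**
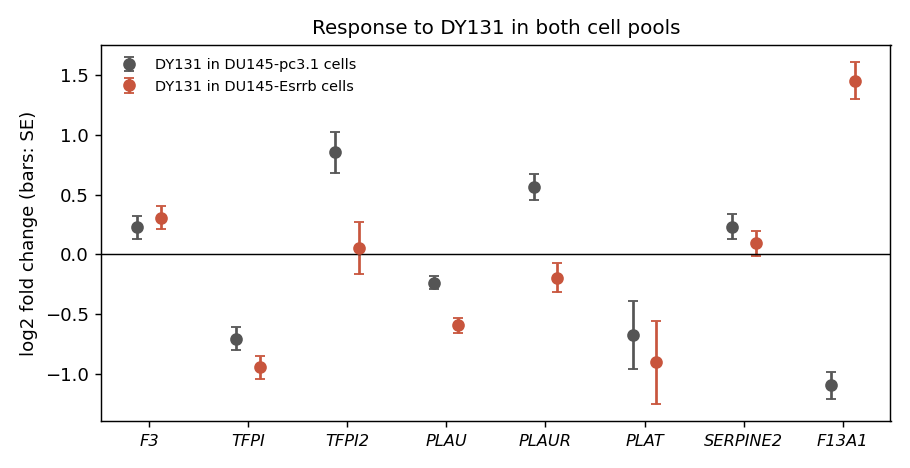
Log2 fold change with DY131 (vertical axis, bars are standard errors of the edgeR fit) for the 7 tested members and F13A1, in DU145-pc3.1 cells (grey) and DU145-Esrrb cells (red). F13A1 was chosen for its levels, so its bars are no test. TFPI, PLAU and PLAT are below 0 in both pools, PLAT without passing the test in DU145-pc3.1 cells. TFPI2 (0.86) and PLAUR (0.57) are above 0 only in DU145-pc3.1 cells beyond their errors, and F13A1 goes from -1.10 to 1.45.

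PLAT, tissue plasminogen activator, was among the lowest members, with 9 to 35 reads per library. Its 29 and 35 reads in DU145-pc3.1 correspond to 2.77 and 3.08 cpm, and its 10 and 9 reads in DU145-Esrrb DY131 to 1.30 and 1.02 cpm. DU145-Esrrb had 2.12 and 2.21 cpm, and DU145-pc3.1 DY131 had 1.78 and 1.88 cpm. The groups did not overlap, and their order was DU145-pc3.1, DU145-Esrrb, DU145-pc3.1 DY131 and DU145-Esrrb DY131. PLAT passed as lower with DY131 in DU145-Esrrb cells (log2 fold change -0.90, SE 0.35, adjusted p = 0.0359, edgeR), and this call was lost, at much the same size, with DESeq2 (-0.91, adjusted p = 0.191) and without the low-count filter (-0.90, adjusted p = 0.0516). It was also lost with the junction share as an offset (-0.73, adjusted p = 0.0905) and without any 1 DU145-Esrrb or DU145-Esrrb DY131 library (-1.08 to -0.73, adjusted p from 0.0652 to 0.195). DY131 in DU145-pc3.1 cells gave -0.68 (SE 0.28, adjusted p = 0.0717).

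SERPINE2, protease nexin-1, which inhibits thrombin and both plasminogen activators, passed the test in none of the comparisons with all 8 libraries. Its libraries ranged from 25.1 to 35.2 cpm. The lowest were the DU145-pc3.1 libraries and the highest a DU145-Esrrb DY131 library, with group means of 25.4 ± 0.407, 30.7 ± 1.93, 29.8 ± 2.96 and 32.6 ± 3.56 cpm (SD, n = 2) in DU145-pc3.1, DU145-Esrrb, DU145-pc3.1 DY131 and DU145-Esrrb DY131. The log2 fold change was 0.27 (SE 0.10, adjusted p = 0.179, edgeR) with Esrrb alone, 0.23 (SE 0.11, adjusted p = 0.097) with DY131 in DU145-pc3.1 cells, and 0.09 (SE 0.10, adjusted p = 0.464) with DY131 in DU145-Esrrb cells. Without DU145-pc3.1 DY131 replicate 1 the value with DY131 in DU145-pc3.1 cells passed (0.34, adjusted p = 0.0159), and without that library or replicate 2 of its group so did the value with Esrrb alone (0.28 and 0.27, adjusted p = 0.0446 and 0.0487).

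Per kilobase of transcript, the members spanned a wide range in DU145-pc3.1 cells. PLAU led with 231 ± 6.08 cpm per kb (SD, n = 2). F3 and TFPI followed at 53.4 ± 5.45 and 51.3 ± 5.53, which do not differ beyond their spread. PLAUR was at 30.6 ± 1.64, SERPINE2 at 11.7 ± 0.188, F13A1 at 9.77 ± 0.151, TFPI2 at 3.57 ± 0.468 and PLAT at 1.08 ± 0.0822, so the urokinase gene stood far above the tissue activator gene. In DU145-Esrrb F13A1 was at 1.52 ± 0.195, below TFPI2 at 2.70 ± 0.229.

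The wider coagulation and plasminogen system was taken as 51 other genes, of which 50 were in the table and 22 passed the filter on low values. Esrrb alone changed 2 of the 22, 1 higher and 1 lower, beside 4.18% of all tested genes. DY131 changed 6 in DU145-pc3.1 cells (2 higher, 4 lower), beside 37.4%, and 18 in DU145-Esrrb cells (8 higher, 10 lower), beside 58.7%. Esrrb in DY131-treated cells changed 15 (8 higher, 7 lower), beside 50.4%, and the response differed for 8 (4 higher, 4 lower), beside 33.7%. The median log2 fold changes of the 22 were 0.04, 0.02, 0.00, -0.17 and -0.08 in that order. FGB, F5, F2RL2 and SERPINI1 were the genes that changed at least 2-fold in any comparison.

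FGB, the β chain of fibrinogen, the precursor of the fibrin that factor XIII crosslinks, rose with Esrrb. FGA and FGG, the genes of the other fibrinogen chains, had 0 or 1 read in every library. FGB had 25 and 27 reads in DU145-pc3.1 and 109 and 101 in DU145-Esrrb. With DY131 it had 13 and 7 reads in DU145-pc3.1 and 141 and 152 in DU145-Esrrb, and no library without Esrrb reached those with it. Esrrb alone gave a log2 fold change of 1.96 (SE 0.20, adjusted p = 3.34e-05, edgeR) and Esrrb with DY131 gave 4.19 (SE 0.23, adjusted p = 1.39e-09). DY131 lowered FGB in DU145-pc3.1 cells (-1.30, SE 0.33, adjusted p = 0.0055) and raised it in DU145-Esrrb cells (0.94, SE 0.15, adjusted p = 6.24e-05), a difference of 2.23 (SE 0.36, adjusted p = 0.000239).

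F5, the cofactor of factor Xa in thrombin formation, had no read in either DU145-Esrrb DY131 library, against 14 and 14 reads in DU145-Esrrb and 20 and 19 in DU145-pc3.1 DY131. DU145-pc3.1 had 9 and 10 reads. Against a floor of 3 reads per library, F5 was at least 3.39-fold higher in DU145-Esrrb and at least 5.14-fold higher in DU145-pc3.1 DY131 than in DU145-Esrrb DY131. In DU145-pc3.1 cells F5 was higher with DY131 by a log2 fold change of 1.10 (SE 0.38). F5 passed the filter on low values only through DU145-Esrrb and DU145-pc3.1 DY131, where it was high. Its values are therefore given without a p, although F5 is among the changed genes counted above.

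F2RL2, a receptor cleaved by thrombin, fell with Esrrb. It had 3.05 and 2.38 cpm in DU145-pc3.1, 0.849 and 1.10 in DU145-Esrrb, 3.18 and 2.78 in DU145-pc3.1 DY131 and 1.17 and 1.58 in DU145-Esrrb DY131. The log2 fold change was -1.47 (SE 0.34, adjusted p = 0.0214, edgeR) without DY131 and -1.09 (SE 0.34, adjusted p = 0.013) with it. SERPINI1, neuroserpin, an inhibitor of tissue plasminogen activator, fell with DY131 from a mean of 7.27 ± 1.04 to 3.42 ± 0.597 cpm (SD, n = 2) in DU145-Esrrb cells (log2 fold change -1.07, SE 0.22, adjusted p = 0.00056, edgeR), and by -0.63 (SE 0.19, adjusted p = 0.0161) in DU145-pc3.1 cells.

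**Figure D5:**
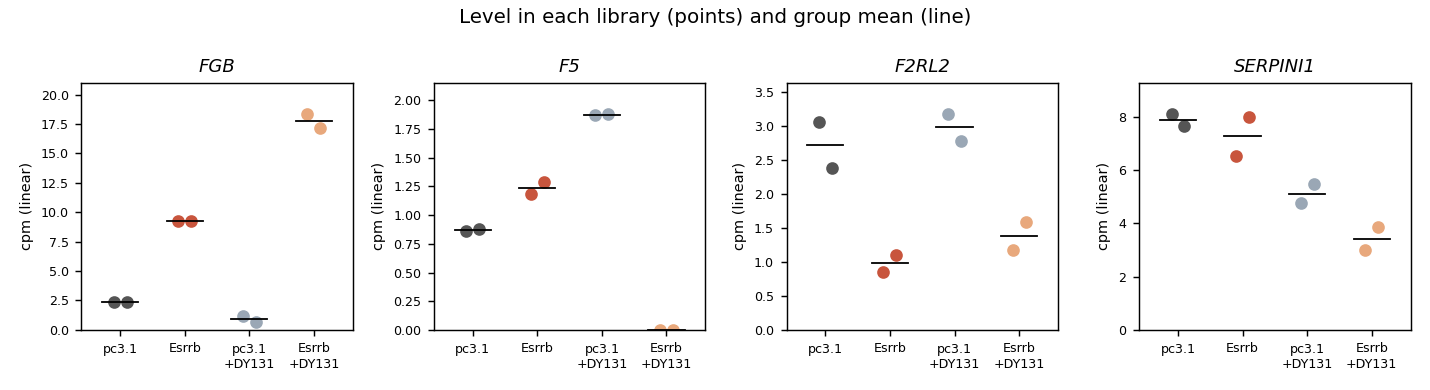
Levels of FGB, F5, F2RL2 and SERPINI1 in cpm, on linear axes that start at 0, in the 4 groups. Points are the 8 libraries, and lines are the means of 2. FGB is high in both Esrrb groups, F5 is at 0 in DU145-Esrrb DY131, F2RL2 is low in both Esrrb groups, and SERPINI1 is lowest in DU145-Esrrb DY131.

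Among the other transglutaminases, enzymes of the same class as factor XIII, 2 of 7 passed the filter. TGM2, tissue transglutaminase, named here after its values were seen, was far above F13A1 per kilobase in every group, from 202 to 246 cpm per kb. It fell with DY131 in DU145-Esrrb cells from a mean of 1246 ± 84.5 to 1026 ± 4.21 cpm (SD, n = 2) by a log2 fold change of -0.28 (SE 0.06, adjusted p = 0.00116, edgeR), and Esrrb alone gave 0.06 (SE 0.06, adjusted p = 0.673).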

How the data were processed

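Polyadenylated RNA of 8 DU145 samples was made into TruSeq Stranded mRNA libraries and sequenced in 1 lane as single reads. Per the labels and the study's methods, the authors trimmed the reads with the FASTX-Toolkit, aligned them to the human genome hg18 with TopHat2 and deposited raw counts per gene. How strand and reads with several matches were treated is not given in the sources used here. Samples were grouped by their labels. The columns of DU145-Esrrb DY131 share 1 header and carry no replicate number, so its libraries are called 1 and 2 in column order. The number of samples per group (2) limits precision.

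The count filter asked for 1 cpm or more in 2 or more libraries and left 13856 of 23391 genes. TMM factors and the quasi-likelihood test of edgeR 4.0.16 in R 4.3.3 were used over all 8 libraries in 1 fit, with Benjamini-Hochberg adjustment over all tested genes. The standard error is the log2 fold change divided by the square root of F. The 5 contrasts were Esrrb without and with DY131, DY131 in each pool, and the interaction. On simulated counts for Esrrb in untreated cells, the test recovered 200 of 200 genes changed by 2 on the log2 scale. There were 3 false calls among 13856 genes. The changed genes were drawn from the more abundant ones, and all genes were given the same spread. This check therefore does not cover smaller changes, genes with few reads or genes of larger spread. The p-values measure the spread between these samples, which the study calls biological replicates. Its methods state that transfected replicates were pooled, so whether this spread includes that between separate transfections is not clear.

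Members and lists were chosen with earlier results of these data known. Named were all 9 members, other genes of the 5 coagulation and plasminogen lists that changed at least 2-fold, and the 5 genes nearest to F13A1 in profile (log2 cpm with prior count 2, mean of at least 5 cpm). TGM2 falls outside this rule and was named after its values were seen, as were the epithelial markers and ITGA2B and GP1BA. Gene positions, overlaps and junction shares (reads of 50 bases) came from GENCODE on GRCh38: 22019 genes matched by RefSeq identifier, 722 by symbol and 650 not. Endothelial markers (0 of 5 passed, at most 1.79 cpm summed) and fibroblast markers (1 of 6 passed, 3.00 to 6.07 cpm) were also read. Alternatives were DESeq2 1.42.0 and its size factors, library totals, edgeR's exact test, other count filters, the junction share offset, the replicate number as a block, and each library left out. Counting intervals are exact (Clopper-Pearson, scipy).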

Additional observations from a re-analysis of the deposited data

Results flagged for a closer look

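The response to DY131 differed between the pools by the interaction test for 3 of the 7 tested members (edgeR, adjusted over all genes, beside 33.7% of all genes). The response in DU145-Esrrb minus that in DU145-pc3.1, on the log2 scale, was -0.80 for TFPI2 (adjusted p = 0.0373), -0.36 for PLAU (adjusted p = 0.00373) and -0.76 for PLAUR (adjusted p = 0.00214). PLAU and PLAUR kept this call in all 14 alternatives run, and TFPI2 in 7 of them. For TFPI2 it was lost with DESeq2 (adjusted p = 0.125) and without any 1 of 6 libraries (adjusted p from 0.058 to 0.129), all but replicate 1 of DU145-pc3.1 and of DU145-pc3.1 DY131. Groups of 2 libraries are too small for a check of single libraries that stand apart.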

How the results depend on the processing

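Of the 7 tested members' values set against the alternatives, 480 kept direction and side of the threshold, 31 were weaker, 16 stronger and 14 changed sign. The TFPI calls with DY131 in both pools, the TFPI2 and PLAUR calls in DU145-pc3.1 cells and those of TFPI2, PLAU and PLAUR with Esrrb under DY131 held under every alternative run.

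With Esrrb in untreated cells, 1 member and 579 genes of all tested changed, 80 of them at least 2-fold. DESeq2 gave 317 and 48 genes, no filter gave 2 members and 948 genes, and at least 10 reads in every library gave 43 genes at least 2-fold. Leaving out 1 library gave 0 to 4 members, 140 to 1523 genes and 46 to 126 at least 2-fold. The highest values came without DU145-pc3.1 DY131 replicate 1 (4 members, 1519 genes) or 2 (4 members, 1523 genes), where F3, TFPI and SERPINE2 joined PLAU. PLAU lost its call without any of the other 6 libraries (adjusted p from 0.071 to 0.231, edgeR): without DU145-pc3.1 replicate 1 or 2 there were 182 and 194 genes, without DU145-Esrrb replicate 1 or 2 there were 140 and 193, and without DU145-Esrrb DY131 library 1 or 2 there were 368 and 372.

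At least 10 reads in every library left 315 genes at least 2-fold changed by DY131 in DU145-pc3.1 cells (580 in the reported fit), 1090 (1666) in DU145-Esrrb cells and 721 (1137) for Esrrb in DY131-treated cells. For the interaction, DESeq2 gave 2897 genes and the junction share offset 3081 (4674). For DY131 in DU145-pc3.1 cells, leaving out 1 library gave 3418 to 5548 genes (5185), the lowest without DU145-pc3.1 replicate 1. For DY131 in DU145-Esrrb cells the junction share offset gave 2 members (4), and leaving out 1 library gave 2 to 5, with 2 without DU145-Esrrb replicate 1 or either DU145-Esrrb DY131 library. The cause of these shifts was not tested.

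The signs of some values changed, for the tested members where the reported value was small. On the log2 scale, TFPI2 with DY131 in DU145-Esrrb cells was -0.0076 with library totals, -0.099 with the junction offset and -0.046 to 0.14 with 1 library left out. TFPI with Esrrb under DY131 was -0.019 with at least 10 reads in every library and -0.093 to 0.10 with 1 left out, but 0.30 (adjusted p = 0.0355) with the junction offset. With that offset the interaction was -0.020 for F3 and 0.034 for TFPI. With 1 library left out, ranges that crossed 0 were -0.069 to 0.041 for PLAUR and -0.099 to 3.03 for SERPIND1 with Esrrb in untreated cells, -0.032 to 0.19 for SERPINE2 with DY131 in DU145-Esrrb cells, -0.29 to 0.030 for F13A1 with Esrrb under DY131, and -0.11 to 0.27 for F3 and -1.10 to 2.04 for SERPIND1 in the interaction. The reported values of SERPIND1 there, 0.79 and 1.15, rest on 1 and 2 reads in all in the groups without DY131 and are not small. F13A1 kept -2.82 to -2.56 with Esrrb in untreated cells.

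Replicate numbers in the sample titles are shared by 3 groups. The deviations of same-numbered libraries correlated at 0.0917, 0.0229 and -0.0685 (2 pairs each). The column headers number some of these libraries differently from the titles, and the title numbers were used here. Whether libraries of different groups were paired therefore cannot be told from these values. With the replicate block in the 6 numbered libraries, 0 members and 397 genes changed with Esrrb in untreated cells (PLAU adjusted p = 0.052), and 5 members with DY131 in DU145-pc3.1 cells (F3 adjusted p = 0.0287). The same 6 libraries without the block, an alternative chosen after seeing the data, gave 0 members and 370 genes. No paired analysis was possible for DU145-Esrrb DY131 because its columns carry no number. Where a group was left with 1 library, that library was assumed to vary like the others. With 9 to 35 reads PLAT, and with 0 to 17 SERPIND1, are limited by depth.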
